A study of Mus musculus with 20 samples.

Results

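Livers of mice given 1 of 2 siRNAs against Ppara were compared, the siRNA named PPARa-M with the siRNA named PPARa. The 8 arrays were chosen by their titles, 4 for each siRNA, out of the 20 arrays of the study. The other 12 arrays hold 4 mice given only the vehicle, Ringer's solution, 4 given GL3 control siRNA and 4 given SEAP-M control siRNA, which target reporter genes. Every siRNA mouse received 40 µg of its siRNA by hydrodynamic tail vein injection, a fast, large-volume injection that drives nucleic acid into hepatocytes, and all livers were taken 48 h later. RNA of each mouse was hybridized on a 2-colour custom oligonucleotide array together with RNA pooled from 4 vehicle mice. The mouse strain and age are not given in the sources used here.

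PPARα, encoded by Ppara, is a nuclear receptor of the liver that is activated by fatty acids and fibrate drugs. Together with the retinoid X receptor it binds DNA and switches on genes of fatty acid uptake, mitochondrial and peroxisomal oxidation and omega hydroxylation. An siRNA guides the cleavage of the mRNA that it matches. It can also lower other mRNAs with partial matches, and double-stranded RNA can be detected by sensors of the interferon system, so a pair of siRNAs against the same mRNA need not give the same profile.

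Several properties of the arrays limit the comparison. Both siRNAs target different fragments of the Ppara mRNA, their sequences are not used here, and what the M in the name stands for is given neither in the labels nor in the text of the paper. The numbers in the titles run consecutively within a group, so any effect of handling order and that of the siRNA cannot be told apart. Each value is the log10 ratio of a mouse to the pool. That direction is likely from the wording of the titles and legends, but the channel that holds the mouse is not stated, and if it were the other one, higher and lower would change places throughout. Since only ratios were used, hepatocyte markers could not be checked for their level in these samples, and no gene's level was set against that of another gene.

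The arrays PPARa-M C and PPARa-M D were unusually alike over the listed genes. Over 625 genes on the lists used below, their ratios correlated at r = 0.966, against 0.713 for the next closest of the 189 other pairs. The robust SD of their log2 difference was 0.10, and that of the other pairs was at least 0.176. Over 2400 genes with 2 probes, the difference between C and D in 1 probe hardly followed that in the other probe (rho = 0.068), whereas the other pairs gave rho from 0.168 to 0.364. Over all probes the picture was mixed. Pearson's r of C and D was 0.529, below the 0.638 of PPARa-M A and B, while Spearman's rho was 0.619 and 0.554, and 408 probes differed by over 2-fold between C and D. That C and D are arrays of 1 RNA was thus not shown, but separate mice could not be assumed either, and as the stricter count they were taken as 1 sample, their mean. The comparison therefore rests on 3 samples with PPARa-M siRNA and 4 with PPARa siRNA. In the main fit, the p-values of the linear model (limma) use a spread shared by all groups, control siRNA and vehicle mice included. The exact permutation tests, and an alternative fit of the Ppara siRNA arrays alone, rest on the spread between these samples alone.

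The ratios of 23493 probes for 15256 genes were compared, with array medians between -0.0093 and 0.0060 on the log10 scale. The interquartile range over probes was 0.0919 ± 0.0226 (SD, 4 arrays) with PPARa-M siRNA and 0.0663 ± 0.0102 (SD, 4 arrays) with PPARa siRNA. On 6 arrays, among them PPARa-M A, B and C and PPARa B, at least 50 probes carried one identical ratio to 4 decimals, and 100 probes had such a value in at least 2 arrays. These probes include 25 genes of the lists, among them Fabp1, Hadh, Cat, Hp, Saa1, Scd1, Plin2 and Cyp3a11. Differences in their measured ratios cannot be read with the others, and the cause was not tested.

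Ppara mRNA was lower in the mice given PPARa-M siRNA. With the mean of its 4 probes, the log10 ratio to the pool was -0.177, -0.317, -0.178 and -0.186 in PPARa-M A to D. It was 0.0258, -0.126, -0.0875 and -0.106 in PPARa A to D. Every PPARa-M array lay below every PPARa array, and the array PPARa A lay above the pool. The group means were -0.225 ± 0.079 (SD, n = 3) and -0.0736 ± 0.0681 (SD, n = 4). Ppara with PPARa-M siRNA thus stood at 70.5% of what it was with PPARa siRNA, or -0.50 on the log2 scale, with a 95% interval from -0.90 to -0.11. A two-sided exact permutation test over the samples gave p = 0.0286, the smallest that 35 splits allow, while limma's test adjusted over all genes gave 0.103, above the threshold of 0.05.

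Cpt1a, the mitochondrial carnitine palmitoyltransferase that admits long-chain fatty acids to oxidation, and Acadl, the long-chain acyl-CoA dehydrogenase, are classic targets of PPARα. Cpt1a, as the mean of 5 probes, stood at 85.6% of its level with PPARa siRNA (log2 difference -0.22 ± 0.10 SE, exact permutation p = 0.0857). Its log10 ratio was -0.0865, -0.201, -0.0558 and -0.0603 in PPARa-M A to D and ran from -0.0827 to -0.0229 in the PPARa mice, so the groups overlapped. Acadl, as the mean of 3 probes, stood at 89.3% (-0.16 ± 0.09 SE, exact permutation p = 0.114). Neither passed limma's threshold as a gene mean, with adjusted p of 0.174 and 0.281, and both gene means kept their direction without any 1 array. The single probes varied. Those of Cpt1a ran from -0.38 to 0.09 on the log2 scale, and the probe at -0.29 was called lower (adjusted p = 0.0302 in limma). Those of Acadl ran from -0.25 to -0.01, and none was called.

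**Figure D1:**
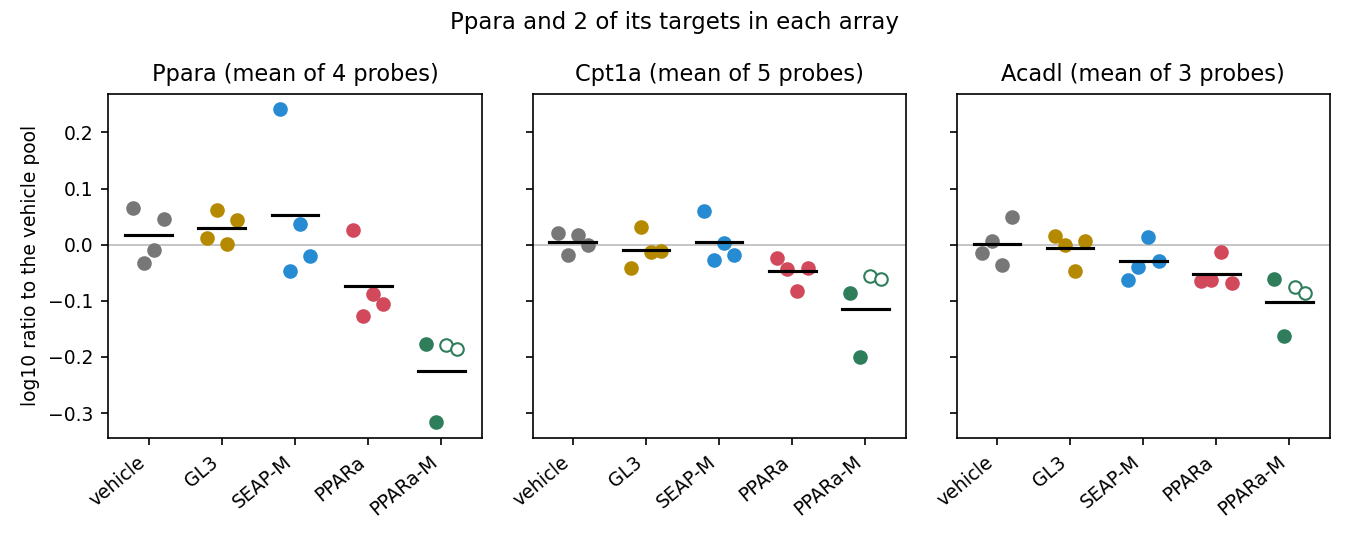
Log10 ratio of each mouse to the vehicle pool (vertical axis) for Ppara, Cpt1a and Acadl, each as the mean of its probes, in the groups of the study. Each point is 1 array and open points are PPARa-M C and D, which were counted as 1 sample; the 4 PPARa-M points of Ppara, from -0.317 to -0.177, lie below the 4 PPARa points, from -0.126 to 0.0258.

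Across all probes, 1370 were higher with PPARa-M than with PPARa siRNA (5.83% of those tested) and 853 were lower (3.63%), at an adjusted p under 0.05 in limma's test. Between the control siRNAs, SEAP-M and GL3, the same fit called 0 probes, where an unadjusted p under 0.05 was met by 1153 probes upward and 1249 downward. As gene means, 668 genes were higher (4.38%) and 534 were lower (3.5%). The mice of the groups did not overlap in 3434 probes (14.6%) and 2200 genes (14.4%). Among the called probes, 273 were higher and 73 were lower by over 2-fold, and the median size of the log2 difference was 0.63 for the higher and 0.44 for the lower ones.

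The number of calls and their split depended on the scale of the arrays and on the samples in the fit. After each array was scaled to 1 interquartile range, 429 probes were higher and 84 lower, and after quantile normalization 354 were higher and 84 lower. With array quality weights the split was 2279 higher and 2347 lower. A fit of the Ppara siRNA arrays alone called 488 probes, 383 of them higher, and without PPARa-M B there were 613 higher and 222 lower. With C and D as separate samples there were 1420 higher and 968 lower. Of the 104 genes and probes that passed among those named by rule, 49 also passed with any 1 array of the Ppara siRNAs left out.

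Most called probes lay farther from vehicle with PPARa-M siRNA. That held for 78.8% of the higher and 88.4% of the lower probes. The group means lay on opposite sides of vehicle in 86.2% of the higher and 61.7% of the lower probes, although often by little with PPARa siRNA, whose median log2 difference from vehicle over these probes was -0.16 and 0.05. Against vehicle itself, 816 probes were higher and 777 lower with PPARa-M siRNA, and 18 were higher and 14 lower with PPARa siRNA. These comparisons share the vehicle arrays.

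The control siRNAs share no array with the Ppara siRNAs and carry the same M in one of their names. SEAP-M minus GL3 had the direction of PPARa-M minus PPARa in 76.2% of the probes called higher and 73.6% of those called lower, beside 61.2% of all probes. Over all 23493 probes the differences correlated at r = 0.319, which describes probes and not independent replicates. When the difference between SEAP-M and GL3 was subtracted from that between PPARa-M and PPARa within the fit, 245 probes (1.04%) passed, 192 of them higher, and 46 genes (0.302%). Of these probes 238 were also among those called between the Ppara siRNAs. Without PPARa-M B, and after either rescaling of the arrays, 0 probes passed this test of the difference of differences.

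Genes of cholesterol synthesis formed the most uniform group. This pathway turns acetyl-CoA through mevalonate and squalene into cholesterol, and its genes are driven together by SREBP2. Of 19 measured genes of cholesterol synthesis and uptake, 17 were lower with PPARa-M siRNA (89.5%, beside 3.5% of all genes) and 0 were higher. The median log2 difference was -1.04, beside -0.03 over all genes. The list's mean log2 ratio was -1.08, -0.92, -0.74 and -0.72 in PPARa-M A to D and 0.45, -0.16, 0.37 and 0.36 in PPARa A to D. All PPARa-M mice lay below all PPARa mice, and PPARa B, the lowest of its group, lay apart from the other 3. Relative to vehicle, the median of the list was -0.74 with PPARa-M siRNA and 0.30 with PPARa siRNA.

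Fdps, which makes farnesyl pyrophosphate, had log2 ratios of -1.86, -1.24, -1.23 and -1.22 in PPARa-M A to D. In PPARa A to D they were 0.47, -0.22, 0.38 and 0.39. The groups did not overlap, and Fdps was 3.25-fold lower with PPARa-M siRNA (log2 difference -1.70 ± 0.25 SE, adjusted p = 0.000858 in limma). Sqle, the squalene epoxidase, showed a larger difference with a larger spread, at -2.05, -2.09, -0.91 and -0.99 in the PPARa-M mice and 0.99, -0.40, 0.57 and 1.09 in the PPARa mice. It was 4.79-fold lower (-2.26 ± 0.37 SE, adjusted p = 0.00198).

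The lower genes covered early and late steps of the pathway. Pmvk, the phosphomevalonate kinase, was 2.17-fold lower (adjusted p = 0.000882). Idi1, the isopentenyl diphosphate isomerase, was 3.77-fold lower, and Cyp51, the lanosterol demethylase, 3.30-fold lower. Msmo1, which removes methyl groups from the sterol ring, was 3.80-fold lower. Insig1, the sterol-regulated protein that holds SREBP in the endoplasmic reticulum, was 2.06-fold lower (adjusted p = 0.0340). Fdps, Pmvk, Idi1 and Cyp51 passed with any 1 array left out, with adjusted p of at most 0.0120. The exceptions were Srebf2, which encodes SREBP2 itself, at a log2 difference of -0.26 (adjusted p = 0.127), and Stard5, a sterol carrier, at -0.23 (adjusted p = 0.176).

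SEAP-M siRNA mice were also below GL3 siRNA mice over this list, with a median log2 difference of -0.27 and 0 genes called. In the difference of differences 1 gene mean of the list passed, Pmvk (-1.16, adjusted p = 0.0405). The count of 17 lower genes fell to 11 in a fit of the Ppara siRNA arrays alone and to 9 with the Ppara level as a covariate. It fell to 6 after scaling to 1 interquartile range and to 3 after quantile normalization, and lay between 14 and 17 with any 1 array left out. The sterol element TCACNCCAC was searched on both strands of RefSeq promoter windows of GRCm38.p6, from 250 bases before to 50 after the transcription start. It stood in 0 of the 15 list genes with a window, beside 1.44% of all genes with a window and 1.24% of all windows. At so low a share, a list of this size cannot be set apart from all genes.

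**Figure D2:**
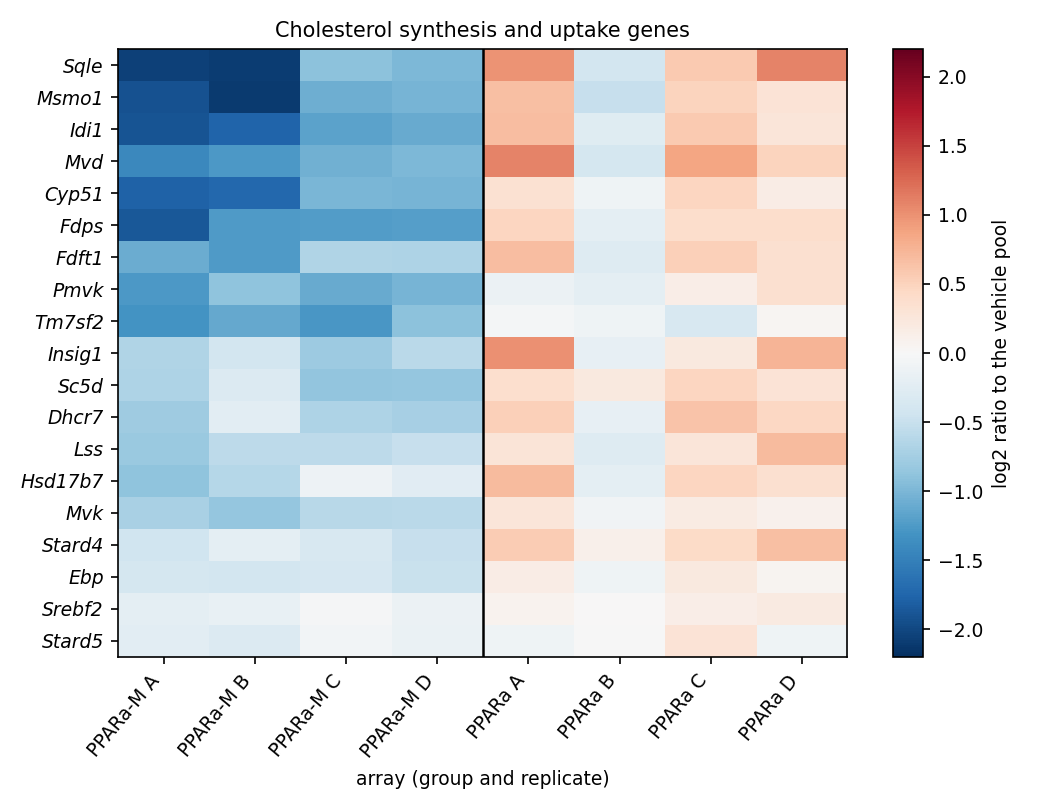
Log2 ratio to the vehicle pool (colour scale) of the genes of cholesterol synthesis and uptake, one gene in each line, with the arrays of the Ppara siRNAs in columns. The PPARa-M columns are on the blue, lower side in nearly all genes, and PPARa B is lower than the other PPARa mice, with a list mean of -0.16 against 0.36 to 0.45.

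Genes of fatty acid and triglyceride synthesis, the other branch of SREBP control, were lower in part. Of 22 measured, 3 were lower (13.6%, beside 3.5% of all genes) and 1 was higher (4.55%, beside 4.38%), with a median of -0.22. Acss2, which makes acetyl-CoA from acetate, had log2 ratios of -1.43, -1.50, -1.44 and -1.44 in the PPARa-M mice and -0.40, -0.14, 0.24 and 0.19 in the PPARa mice. It was 2.69-fold lower (adjusted p = 0.00198). Fads2, a fatty acid desaturase, was 1.49-fold lower and Elovl5, a fatty acid elongase, had a log2 difference of -0.79. Mlxipl, which encodes the glucose-sensing factor ChREBP, was 1.45-fold higher (adjusted p = 0.0274). Acss2 and Fads2 passed with any 1 array left out, whereas Elovl5 and Mlxipl each lost the call without PPARa-M B, without PPARa C and without PPARa D, with adjusted p of up to 0.0566 and 0.162.

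Lists of genes controlled by PPARα had few calls between the siRNAs. Of 17 measured genes of mitochondrial fatty acid oxidation, 1 was higher and 0 were lower, with a median log2 difference of 0.01. Of 14 genes of peroxisomal oxidation and division, 1 was higher and 0 were lower (median -0.03). Of 25 genes of omega hydroxylation, thioesterases and lipid droplets, 1 was higher and 1 was lower (median -0.05). The counts of the 3 lists are near the 4.38% and 3.5% of all genes. The lists hold Acaa2, Acadvl, Hadh, Cat, Fabp1, Plin2 and Slc27a2, which have the shared ratios described above. Against vehicle, 4, 3 and 3 genes of these lists were lower and 1, 1 and 0 higher with PPARa-M siRNA. With PPARa siRNA 0 passed in each list. Over all 15256 genes, 541 were lower and 473 higher with PPARa-M siRNA, and 5 were lower and 6 higher with PPARa siRNA.

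The members that passed between the siRNAs had different directions. Slc22a5, the carnitine transporter, was 1.44-fold higher with PPARa-M siRNA (adjusted p = 0.00999), with log2 ratios from 0.08 to 0.91 in the PPARa-M mice and from -0.17 to 0.08 in the PPARa mice. Crat, the carnitine acetyltransferase, was 1.21-fold higher. Acot1, a cytosolic acyl-CoA thioesterase, stood at 0.35, 0.85, 0.52 and 0.40 with PPARa-M and at -0.49, -0.04, -0.23 and -0.96 with PPARa siRNA, a 1.98-fold difference (adjusted p = 0.0128). Cyp4a12a, a male-biased omega hydroxylase, was 2.33-fold lower (adjusted p = 0.0190). Slc22a5 passed with any 1 array left out. Crat and Acot1 lost the call without PPARa-M B (adjusted p = 0.0653 and 0.0834), and Cyp4a12a without PPARa-M A, PPARa-M B, PPARa A or PPARa C (up to 0.0873). A search for the PPAR element AGGTCAAAG on both strands found it in 0 of 15, 0 of 11 and 1 of 15 list genes with a window. It stood in 0.49% of all genes with a window and in 0.43% of all windows. With so rare an element, lists of this size cannot be set apart from all genes.

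Among the receptor and its partners, Pparg, the adipose PPAR, was 1.28-fold lower with PPARa-M siRNA (adjusted p = 0.0130). Nrip1, a corepressor of nuclear receptors, was 1.51-fold higher, and Ncoa1, a coactivator, and Sirt1, a deacetylase of PPARα's coactivators, were 1.25-fold and 1.28-fold higher. Pparg did not pass without PPARa-M B (adjusted p = 0.0667), Ncoa1 not without PPARa-M B, PPARa A or PPARa C (up to 0.131), and Sirt1 failed without any 1 of 6 arrays. Of 16 measured members of the family, 3 were higher and 1 was lower, beside 4.38% and 3.5% of all genes. Of 14 measured genes among the 15 that the study named for liver hypertrophy, 1 was higher and 1 was lower. These genes were chosen by the study with these samples and are not independent evidence of a direction.

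Among the immediate early genes, transcription factors and feedback regulators that are induced within minutes of a stimulus, Egr1 and some AP-1 subunits were higher with PPARa siRNA. Of 24 measured, 8 were lower with PPARa-M than with PPARa siRNA (33.3%, beside 3.5% of all genes) and 0 were higher. The median log2 difference was -0.17, with a positive difference in 8 genes. Egr1, a zinc-finger factor, had log2 ratios of 2.55, 2.66, 2.44 and 1.51 in PPARa A to D. In PPARa-M A to D they were 0.64, -0.50, -0.08 and -0.15. The groups did not overlap, and the mean was 4.87-fold higher with PPARa siRNA (adjusted p = 0.00199). Against vehicle, Egr1 was higher with PPARa siRNA by 2.37 on the log2 scale (adjusted p = 0.0138).

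The other genes that passed moved less. Btg2, an antiproliferative gene, stood at 0.91, 1.26, 1.09 and 0.91 in the PPARa mice and between -0.56 and 0.08 in the PPARa-M mice, 2.38-fold apart (adjusted p = 0.000844). Junb and Jun, subunits of AP-1, were 1.95-fold and 2.37-fold higher with PPARa siRNA. Fos, their partner, was 1.28-fold higher. Zfp36, which destabilizes cytokine mRNAs, was 2.05-fold higher, Nr4a1, an orphan nuclear receptor, 1.66-fold and Ier2 1.63-fold. Dusp1, a phosphatase of MAP kinases, was above the pool with both siRNAs, at a mean log2 ratio of 1.10 ± 0.74 (SD, n = 3) and 1.42 ± 0.23 (SD, n = 4), and did not pass (adjusted p = 0.521). With any 1 array left out, between 5 and 8 of the list were lower, Egr1, Btg2, Junb and Nr4a1 always among them. Scaling to 1 interquartile range left 6, quantile normalization 6 and a fit of the Ppara siRNA arrays alone 4.

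**Figure D3:**
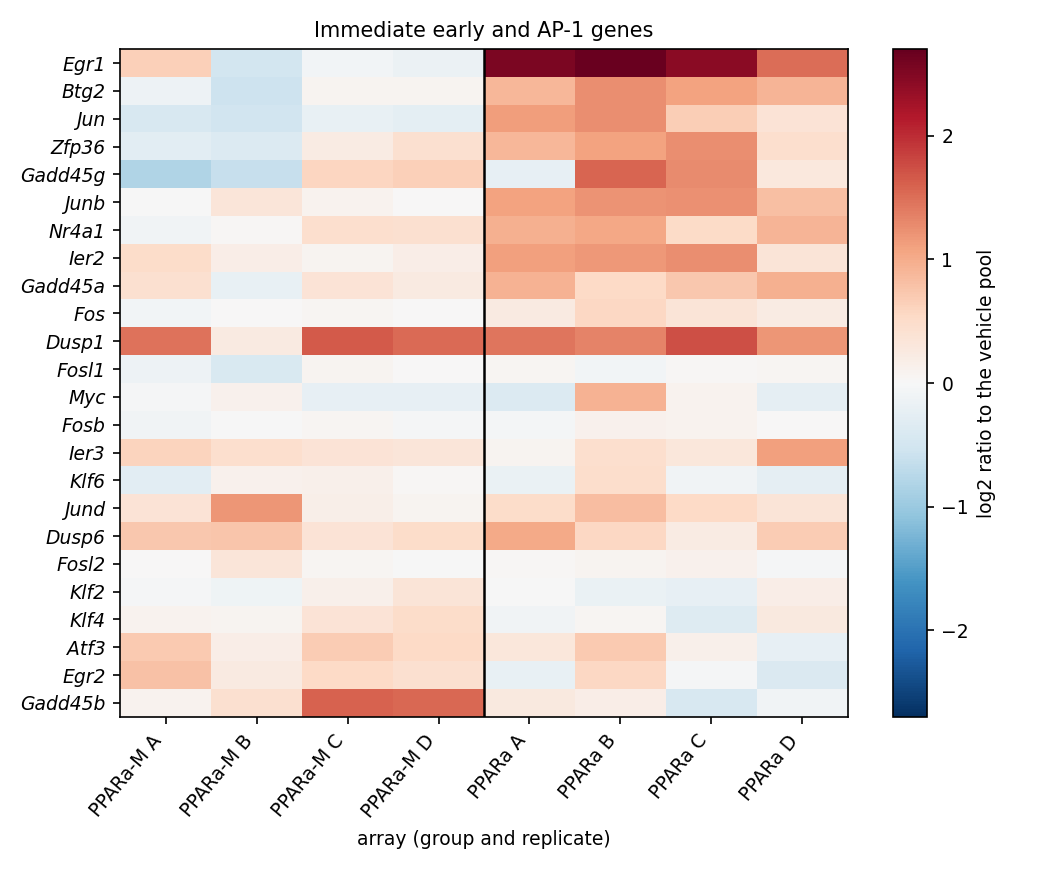
Log2 ratio to the vehicle pool (colour scale) of the 24 measured immediate early genes, one gene in each line, with the arrays of the Ppara siRNAs in columns; PPARa-M C and D were counted as 1 sample. Egr1 sits between 1.51 and 2.66 in the PPARa columns and between -0.50 and 0.64 in the PPARa-M columns, while Dusp1 is above the pool in all 8 columns.

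Some sensors of foreign nucleic acid were higher with PPARa-M siRNA, while few interferon-stimulated genes passed in either direction. Promoters of such genes often hold the interferon response element, and 3 windows are shown here because Eif2ak2 passed with any 1 array left out, and because Ifit1, also counted among the sensors, and Isg15, of the interferon-stimulated list, had high ratios in PPARa-M C and D. They come from RefSeq on GRCm38.p6, and each is 300 bases long, 5′ to 3′ on the strand of the gene, ending 50 bases after the start site. Capitals mark matches to GAAANNGAA on either strand, where overlapping matches run together. The Eif2ak2 window lies at chr17:78882523-78882822 on the minus strand, the Isg15 window at chr4:156200769-156201068 on the minus strand and the Ifit1 window at chr19:34640639-34640938 on the plus strand.
Eif2ak2: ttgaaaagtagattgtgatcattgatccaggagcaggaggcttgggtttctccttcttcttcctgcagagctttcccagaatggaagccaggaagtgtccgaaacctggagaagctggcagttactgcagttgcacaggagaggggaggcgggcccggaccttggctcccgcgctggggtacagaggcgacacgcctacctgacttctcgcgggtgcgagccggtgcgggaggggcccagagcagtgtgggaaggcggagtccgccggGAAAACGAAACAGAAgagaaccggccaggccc
Isg15: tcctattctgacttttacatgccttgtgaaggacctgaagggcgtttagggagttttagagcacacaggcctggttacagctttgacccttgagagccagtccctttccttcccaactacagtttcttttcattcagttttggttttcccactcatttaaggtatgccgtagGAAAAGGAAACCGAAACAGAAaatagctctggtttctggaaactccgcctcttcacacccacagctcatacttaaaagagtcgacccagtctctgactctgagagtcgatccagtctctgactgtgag
Ifit1: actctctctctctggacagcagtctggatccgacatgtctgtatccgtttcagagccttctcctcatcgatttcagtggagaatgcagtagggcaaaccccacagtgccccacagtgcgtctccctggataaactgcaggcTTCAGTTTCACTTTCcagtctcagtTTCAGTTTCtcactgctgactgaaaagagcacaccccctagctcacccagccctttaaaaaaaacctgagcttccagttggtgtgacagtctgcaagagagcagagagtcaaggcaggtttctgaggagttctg

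The motif stood in 8 of the 12 sensors and in 19 of the 35 interferon-stimulated genes with a window, beside 9.76% of 27025 genes and 8.56% of 32851 windows. A match is a description of the letters, not of binding.

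Of 17 measured sensors, 4 were higher with PPARa-M siRNA (23.5%, beside 4.38% of all genes) and 0 were lower, with a median log2 difference of 0.31. Eif2ak2, which encodes the double-stranded RNA kinase PKR, had log2 ratios of 0.50, 1.04, 0.58 and 0.52 in PPARa-M A to D and -0.18, 0.05, 0.00 and -0.25 in PPARa A to D. The groups did not overlap, and the mean was 1.73-fold higher with PPARa-M siRNA (adjusted p = 0.000844). Zc3hav1, an antiviral zinc-finger protein, was also 1.73-fold higher. Dhx58, which encodes the RNA helicase LGP2, was 1.98-fold higher, with ratios of 0.76, 0.37, 1.78 and 1.88 in the PPARa-M mice and at most 0.31 in the PPARa mice, and Oas1b, an oligoadenylate synthetase, was 1.42-fold higher. Eif2ak2 and Zc3hav1 passed with any 1 array left out. Dhx58 reached an adjusted p of 0.05 without PPARa D, and Oas1b lost the call without any 1 of 6 arrays (up to 0.181). Scaling to 1 interquartile range and quantile normalization each left 1 of the list, and a fit of the Ppara siRNA arrays alone left 0.

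Of 44 interferon-stimulated genes, 3 were higher (6.82%) and 2 were lower (4.55%), near the 4.38% and 3.5% of all genes, with a median log2 difference of 0.30. The list's mean log2 ratio was 0.05 and -0.21 in PPARa-M A and B but 1.03 and 1.04 in C and D, and it lay between -0.15 and 0.08 in the PPARa mice. The high mean was thus a property of the arrays that were counted as 1 sample. Isg15, a ubiquitin-like modifier, showed this at 0.60, -0.08, 2.85 and 2.63 in PPARa-M A to D and did not pass (adjusted p = 0.0667). Ifit1, an RNA-binding protein on the list of sensors, had the same pattern, at 0.36, -0.26, 4.19 and 4.07 (adjusted p = 0.109).

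The 3 that were higher were Parp14, an ADP-ribosyltransferase (3.11-fold, adjusted p = 0.00387), Rtp4 (2.06-fold, adjusted p = 0.0336) and Lgals3bp (1.43-fold, adjusted p = 0.0488). Parp14 was above every PPARa mouse in each PPARa-M mouse, at 0.23, 0.95, 2.02 and 2.05 against -0.70 to -0.35. The class I antigen-presenting genes H2-D1 and H2-K1 were lower with PPARa-M siRNA, H2-D1 by 1.55-fold (adjusted p = 0.0104). With C and D as separate samples 10 genes of the list were higher, without PPARa-M B 8, without C and D 2, and without any 1 of PPARa A, B or D 1. Parp14 passed with any 1 array left out, while H2-D1 did not without PPARa-M B (adjusted p = 0.0737).

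The machinery of RNA interference moved in both directions. Of 15 measured genes, 2 were higher and 2 lower (13.3% each, beside 4.38% and 3.5% of all genes), with a median of -0.01. Tnrc6b, a scaffold that joins Argonaute to mRNA decay, was higher with PPARa-M siRNA by 1.14 on the log2 scale (adjusted p = 0.000677), at 0.85, 1.01, 0.84 and 0.71 against -0.33, 0.17, -0.31 and -0.56 in the PPARa mice. Its relative Tnrc6a was 1.49-fold higher. Prkra, which encodes PACT, a partner of Dicer and activator of PKR, was 1.33-fold lower, and Eri1, an exonuclease that degrades small RNAs, 1.21-fold lower. Eri1 lost the call without PPARa-M B (adjusted p = 0.0698), and the other 3 passed with any 1 array left out.

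Acute phase proteins, made by hepatocytes in inflammation, were lower with PPARa-M siRNA in 5 of 28 measured genes and higher in 0. The 5 are 17.9%, beside 3.5% of all genes, and the median log2 difference was -0.65. The list's mean was -0.50, -0.48, -0.25 and -0.26 in PPARa-M A to D and 0.32, -0.07, -0.20 and 1.43 in PPARa A to D. PPARa D stood far above the other mice. Orm1, an acute phase glycoprotein, was at 0.68, -0.07, 0.53 and 1.69 in the PPARa mice and at or below -0.32 in the PPARa-M mice (2.48-fold, adjusted p = 0.0159). Orm2 (5.22-fold), Saa2, a serum amyloid (3.43-fold), and Socs3, a feedback inhibitor of cytokine signals (3.17-fold), were higher with PPARa siRNA with wider spreads, and Orm3 had a log2 difference of -0.97. The count of 5 fell to 4 without PPARa D, 1 without PPARa-M B and 0 without PPARa-M A, and it was 0 after scaling to 1 interquartile range, after quantile normalization and in a fit of the Ppara siRNA arrays alone.

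Neutrophil markers moved with the same mouse. Of 10 measured, 0 passed in either direction, and their median was -0.68. Their mean log2 ratio was 2.38 in PPARa D, 0.50, 0.41 and -0.17 in PPARa A to C and -0.26 to -0.07 in the PPARa-M mice. S100a8, a calcium-binding protein abundant in neutrophils, reached 4.57 in PPARa D and Ngp, a neutrophil granule protein, 4.41. In bulk tissue, a change in the number of cells of a type and in RNA per cell cannot be told apart. The part of these cells in the acute phase values was not tested.

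**Figure D4:**
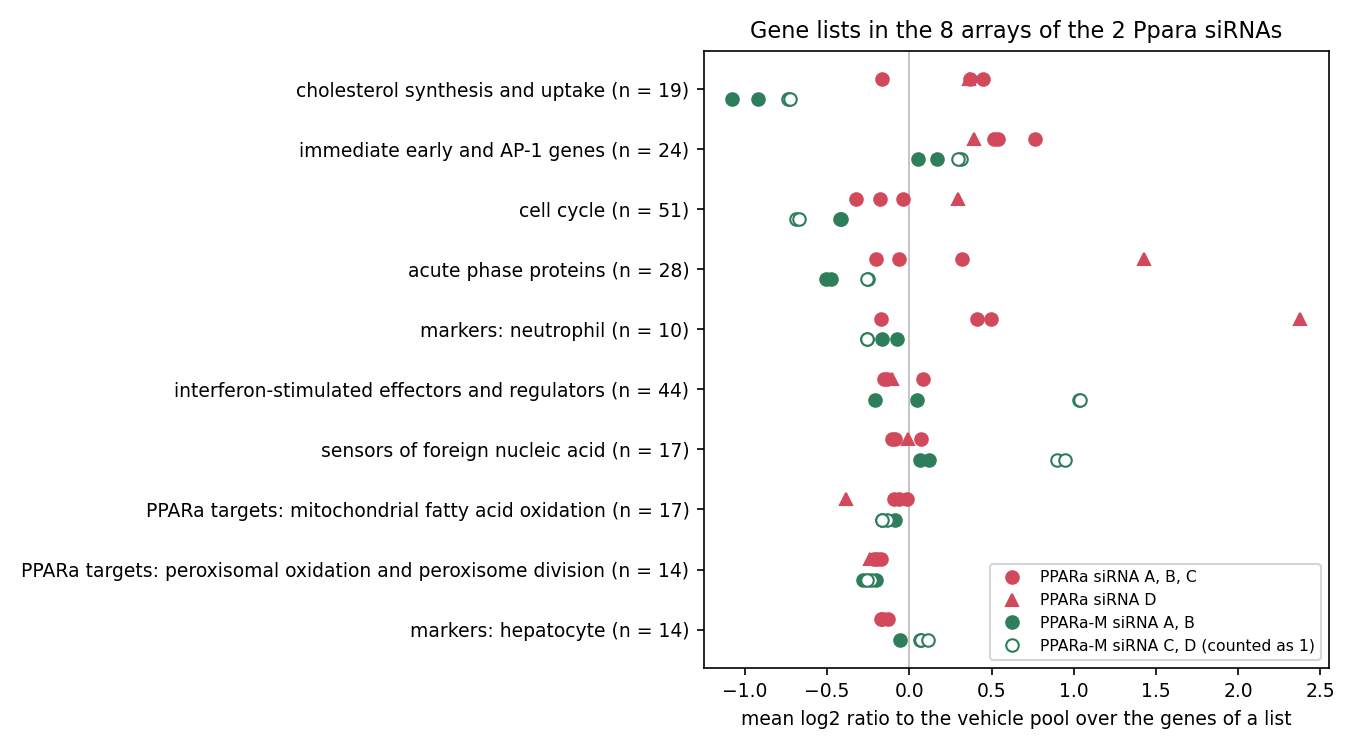
Mean log2 ratio to the vehicle pool (horizontal axis) over the measured genes of each list, 1 point for each array of the Ppara siRNAs, with open points for PPARa-M C and D (counted as 1 sample) and a triangle for PPARa D. Cholesterol synthesis separates the groups, from -1.08 to -0.72 against -0.16 to 0.45; the interferon lists are high in the open points alone, and the neutrophil and acute phase lists are highest in PPARa D, at 2.38 and 1.43.

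Cell cycle genes were lower in part with PPARa-M siRNA, in 6 of 51 measured (11.8%, beside 3.5% of all genes), with 0 higher and a median log2 difference of -0.50. In this list 47 of 51 genes had a negative difference, beside 8775 of all 15256 genes. Ccnb2, a mitotic cyclin, stood at -1.12, -1.21, -1.41 and -1.49 in the PPARa-M mice and at -0.35, -0.10, -0.35 and 0.49 in the PPARa mice (2.27-fold, adjusted p = 0.0424). Ect2, needed for cytokinesis, was 2.04-fold lower, Cdkn3, a phosphatase of cyclin-dependent kinases, 1.71-fold lower and Foxm1, a regulator of mitotic genes, 1.25-fold lower. Cell cycle values varied among the PPARa mice, with list means from -0.33 to 0.30. Without PPARa-M B 1 gene passed, without PPARa-M A or without PPARa D 2, and with C and D as separate samples 13. Scaling to 1 interquartile range and quantile normalization left 0. Foxm1 passed with any 1 array left out.

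The circadian output genes Dbp and Bhlhe40 were 2.53-fold and 2.04-fold lower with PPARa-M siRNA (adjusted p = 0.0158 and 0.0126). Bhlhe41 and Nr1d2, further repressors of the clock, were also lower, so that 4 of 17 were lower (23.5%, beside 3.5% of all genes) and 0 higher. Dbp was at 0.42, -1.03, -0.39 and 0.48 in the vehicle mice, which spans much of the range between the siRNA groups. The time of day at which livers were taken is not given in the sources used here. Without PPARa-M B 1 gene of this list passed, Dbp, and 0 passed after scaling to 1 interquartile range or quantile normalization.

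Markers of the cell types of the liver differed less, and their counts stand beside 4.38% of all genes called higher and 3.5% called lower. Of 14 hepatocyte markers, 2 were higher with PPARa-M siRNA (median 0.15), Apob, the protein of very low density lipoprotein (1.60-fold), and Ttr, the carrier of thyroxine (1.47-fold). Of 11 endothelial markers, 2 were higher (median 0.18). Flt1, which binds vascular endothelial growth factor, was 1.63-fold higher, at 0.49 to 0.72 against -0.23 to -0.03 (adjusted p = 0.00289), and Tie1, an endothelial receptor kinase, 1.41-fold. For Kupffer cell (13 measured), stellate cell (14), periportal (8) and muscle (12) markers 0 passed, with medians of 0.03, 0.25, 0.04 and -0.20. Of 17 lymphocyte markers 1 was lower, Ighm, the immunoglobulin heavy chain, and of 8 cholangiocyte markers 1 was higher, Epcam. Flt1 and Ighm passed with any 1 array left out, and Apob, Ttr, Tie1 and Epcam did not, each failing at least without PPARa-M B (adjusted p of up to 0.120, 0.0793, 0.0757 and 0.241).

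Genes of drug metabolism showed a few differences, where 4.38% of all genes were called higher and 3.5% lower. Nr1i3, which encodes the xenobiotic receptor CAR, was 1.77-fold higher with PPARa-M siRNA (adjusted p = 0.00755), at 0.33, 0.53, 0.98 and 0.94 against -0.25, -0.21, -0.09 and -0.33. With Cyp2c29 (1.53-fold) and Cyp2c38, 3 of 27 genes of this list were higher and 0 lower, with a median of -0.01. Of 28 conjugation and NRF2 genes, 2 were higher and 2 lower (7.14% each). Among them Gstm2, a glutathione transferase, was 1.59-fold lower (adjusted p = 0.00488). Nr1i3 and Gstm2 passed with any 1 array left out, whereas Cyp2c29 did not without PPARa-M B (adjusted p = 0.0981) and Cyp2c38 not without any 1 of 6 arrays.

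Several probes with the largest decrease were of the kinds of genes described, whose lists were chosen with earlier results of these data known. Moxd1 and Ppp1r3g, which had the largest decreases, are on none of these lists. Among the 12 largest were Sqle, Msmo1, Idi1, Lss and Mvd of cholesterol synthesis, Saa2, Saa-ps, Orm2 and the chemokine Cxcl1 of inflammation, and Egr1. Moxd1, a monooxygenase-like protein, had the largest log2 difference, -3.76 ± 1.01 SE (adjusted p = 0.0276), at -2.01, -2.88, -1.57 and -1.48 in the PPARa-M mice and 3.65, 1.97, -1.16 and 2.02 in the PPARa mice. The vehicle mice ran from -2.88 to 1.80 for Moxd1, and the call was lost without any 1 of 5 arrays (adjusted p of up to 0.129). Ppp1r3g, a glycogen-targeting subunit of protein phosphatase 1, was at 2.46, 2.02, 0.77 and 1.09 in the PPARa mice and at -1.48, -1.01, -0.52 and -0.56 in the PPARa-M mice, 6.05-fold apart (adjusted p = 0.000714). Of the 36 probes called lower by over 2-fold whose gene had another probe, 34 (94.4%) had at least 1 other probe called lower. All 36 had at least 1 other probe in that direction. Several of these probes can belong to the same gene.

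The probes with the largest increase did not share this property. The 12 largest were those of Mdk, Cyp4a14, Gm45914, Nfib, C330007P06Rik, Atl3, Zfr, Obp1b, S100g, 2310067E19Rik, 2610024D14Rik and Hsd3b3. Mdk, a heparin-binding growth factor, was at 1.38, 2.23, 0.53 and 0.65 in the PPARa-M mice and -0.76, 0.15, -1.10 and -1.22 in the PPARa mice (4.39-fold, adjusted p = 0.00235). Nfib, a transcription factor, was 3.92-fold higher (adjusted p = 0.00125), and it was at 0.64, 1.69, 0.99 and 1.04 against -0.60, -0.20, -1.51 and -1.11. Of the 67 probes called higher by over 2-fold whose gene had another probe, 17 (25.4%) had at least 1 other probe called higher. At least 1 other probe in that direction, called or not, was found for 49 (73.1%).

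Other probes of the leading genes went in either direction. For Nfib the second probe had a log2 difference of 0.26 and did not pass (adjusted p = 0.0911 in limma). The second probe of Atl3, a shaper of the endoplasmic reticulum, had a log2 difference of -0.29 and was called lower, that of Zfr, an RNA-binding zinc-finger protein, -0.26, and that of Hsd3b3, a steroid dehydrogenase, -0.10. The 5 probes of Cyp4a14, an omega hydroxylase under PPARα, ranged from -0.35 to 2.01, and 2 were called. Over the 20 arrays the 12 leading probes correlated at 0.497 to 0.996, with a median of 0.85. These arrays include those by which the probes were chosen. With the mean of the 12, 141 probes correlated above 0.9, of which 57 (40.4%) had no single gene symbol. Among the 12 largest decreases the median correlation was 0.611. Probes without a single symbol made up 31.2% of all that were called higher, 12.9% of those called lower and 20.0% of the array. What these probes share was not tested.

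**Figure D5:**
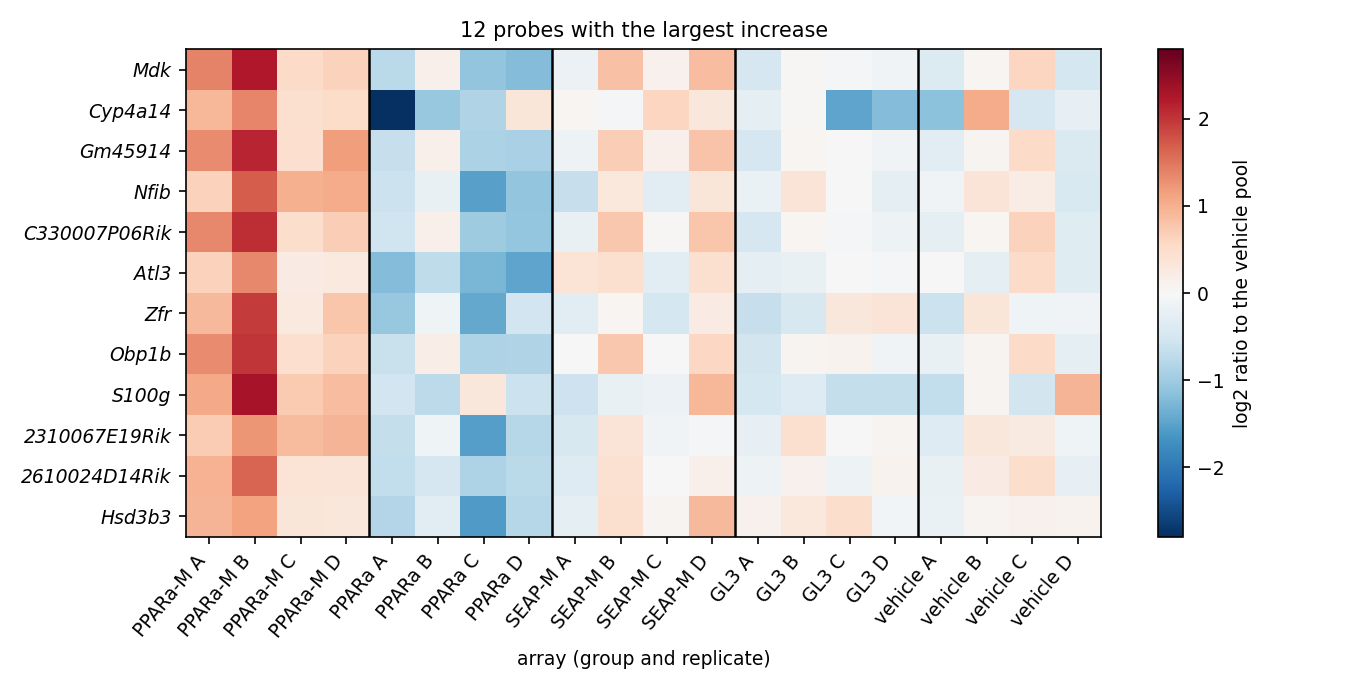
Log2 ratio to the vehicle pool (colour scale) of the 12 probes with the largest increase, one probe in each line, in all 20 arrays grouped by treatment. Over all 20 arrays the pairs of probes correlated at 0.497 to 0.996, with a median of 0.85. These arrays include those by which the probes were chosen, and the control siRNA and vehicle arrays were not correlated alone.

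The largest differences that remained after subtracting the control siRNAs were those of Egr1, Ppp1r3g, Nfib, 2310067E19Rik, Cyp51, 2610024D14Rik, Fdps and Atl3. For Cyp51 the difference of differences was -1.65 (adjusted p = 0.0333) and for Nfib 2.03 (adjusted p = 0.0340). The genes with the largest differences for which PPARa siRNA stood farther from vehicle than PPARa-M siRNA were Moxd1, Egr1, Nr4a1, Ppp1r3g, Orm2, Junb, Saa1 and Socs3. The Saa1 probe has the shared ratio in PPARa B. Of these, the named probes of Egr1, Nr4a1 and Junb were called between PPARa siRNA and vehicle, at adjusted p of 0.00393, 0.0157 and 0.00402 in limma. The other probes of Egr1 were also called there, at adjusted p of up to 0.0422.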

How the data were processed

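Liver RNA of 20 mice was measured on 2-colour arrays, 4 mice in each of 5 groups taken from the sample titles. The authors deposited a log10 ratio of mouse to vehicle pool per probe, with no intensities or errors, so signal over background is unknown. The normalization is not stated in the sources used here, and 40 values, from 36 probes, equal the bound of 2 or -2. Precision rests on the number of arrays. Without further scaling, the ratios were put on a log2 scale and a linear model with a mean for each group was fitted (limma 3.58.1, R 4.3.3), with moderated variances over all groups and Benjamini-Hochberg adjustment within each comparison at a threshold of 0.05. The fit was planned on 20 arrays. PPARa-M C and D were averaged after seeing the data, since over listed genes they were far more alike than any other pair, and the fit with both apart is an alternative. For the lists, several probes of a gene were averaged, as for Ppara, Cpt1a and Acadl, which were also compared with two-sided exact permutation tests. Symbols come from the platform's annotation: 18790 probes have 1 symbol, 65 several and 4638 none, and the latter were tested but not named.

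Genes named are Ppara, Cpt1a and Acadl, the 12 largest increases and 12 largest decreases among probes called whose mice do not overlap, the 8 largest in the difference of differences, the 8 largest for which PPARa siRNA was farther from vehicle, and up to 4 genes of each list with the smallest p. Others, such as Srebf2, Stard5, Dusp1, Ifit1, Isg15, S100a8 and Ngp, were named after their values were seen. The groups and the 33 lists (646 of 751 entries matched) were chosen with earlier results of these data known. Adjusted p-values of listed genes are from the fit of gene means and those of leading probes from the fit of probes.

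Alternatives were median centring, quantile normalization, scaling to 1 interquartile range, array quality weights, robust moderation, only the compared groups, a replicate block, a filter at 1.5-fold, a threshold of 0.01, the Ppara level as a covariate, 1 value per gene and each array left out. C and D apart, and without both, were added after seeing the data. The fit was tested on simulated data. Python 3.11.15, pandas 2.3.3, NumPy 2.4.6, SciPy 1.17.1 and Matplotlib 3.10.9 were used. Promoter windows are from RefSeq on GRCm38.p6.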

Additional observations from a re-analysis of the deposited data

Results flagged for a closer look

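Only the PPARa siRNA arrays were tested for an array that stands apart, not those of PPARa-M siRNA. The sets share values, since probes, genes and lists overlap. In 13 of 149 sets of these 4 arrays, 1 array stood far from the other 3, and chance gives about 1 in 20 for separate sets. PPARa D was that array in 6 of them, always below the rest, for 2 probes of Egr1 (log2 ratio 1.70 and 1.66), for Slc22a5 (-0.17), for Bhlhe41, a clock repressor (0.46), and for the means of the PPARα targets of omega hydroxylation, thioesterases and lipid droplets (-0.35) and of oxidative phosphorylation (-0.31). PPARa B stood apart for a probe of Fdps (-0.21), for the gene mean of Fdps (-0.22), for the cholesterol list (-0.16), for Pparg (-0.0197) and for Tnrc6a (0.0271). PPARa C stood apart for Slc27a5, a bile acid ligase (-0.12), and PPARa A for the proteasome list (0.0795).

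The difference between the Ppara siRNAs itself differed from that between the control siRNAs, by limma's test of the difference of differences, in 12 of the probes and genes named. That count follows in part from the naming rule, which took probes by their size in this same comparison. Those were the probes of Nfib, Atl3, 2310067E19Rik, 2610024D14Rik, Ppp1r3g, Cyp51 and Fdps, and the Egr1 probe at -2.57. Over all features, 1.04% of probes and 0.302% of genes passed. The difference of differences was positive for the probes of Nfib (2.03, adjusted p = 0.0340), Atl3 (1.56, 0.0433), 2310067E19Rik (1.87, 0.0248) and 2610024D14Rik (1.61, 0.0309). It was negative for Ppp1r3g (-2.41, 0.0342), for 3 probes of Egr1 (-2.57, -2.35 and -2.55, with adjusted p of 0.0333, 0.0248 and 0.0342), for Cyp51 (-1.65, 0.0333) and Fdps (-1.56, 0.0356), and for the gene means of Pmvk (-1.16, 0.0405) and Btg2 (-1.32, 0.0374). Without PPARa-M B the count over all probes was 0.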

How the results depend on the processing

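No direction turned under any alternative for Ppara, Cpt1a, Acadl and the genes and probes that passed among those named by rule. The directions of list medians were not checked. The larger share of called probes went from higher to lower with array quality weights. The 2223 probes called between the Ppara siRNAs (1370 higher, 853 lower) became 438 (354, 84) after quantile normalization, 513 (429, 84) after scaling to 1 interquartile range, 4626 (2279, 2347) with array quality weights, 488 (383, 105) in a fit of those groups alone, 1006 (730, 276) with the 1.5-fold filter, 756 (583, 173) at a threshold of 0.01, 410 (292, 118) with the Ppara level as a covariate and 1202 genes (668, 534) with 1 value per gene. With 1 array left out the count lay between 835, without PPARa-M B, and 2261, without PPARa-M C (613 to 1383 higher, 222 to 897 lower), and it was 3275 without PPARa-M C and D together (1798 higher, 1477 lower). Lower calls numbered 560 without PPARa-M A and 516 without PPARa A. The 245 probes of the difference of differences became 0 after quantile normalization, after scaling, at 0.01 and with the covariate, 707 with weights, 392 with C and D as 2 samples and 46 genes. With 1 array left out they ranged from 0 (without PPARa-M B) to 311 (without PPARa B), with 54 without GL3 B, 55 without SEAP-M A, 58 without SEAP-M C, 64 without PPARa C, 70 without GL3 C, 140 without GL3 D and 146 without PPARa A. The 0 probes called between the control siRNAs became 47 after scaling, 214 with weights, 2 with the covariate and 0 to 1 with an array left out. With 1 array left out the log2 difference ranged from -0.58 to -0.35 for Ppara, from -0.27 to -0.08 for Cpt1a and from -0.23 to -0.06 for Acadl. With the Ppara level as a covariate, the lower genes numbered 9 for cholesterol, 4 for immediate early, 4 for cell cycle, 0 for acute phase and 0 for circadian genes. The higher genes numbered 1 for sensors and 0 for interferon-stimulated genes. The groups differ in the Ppara level itself, so this fit does not separate the siRNA from that level. Of the values for 148 other results, 2160 stayed the same, 498 lost the call, 6 gained it and 91 moved. A gene or probe stayed the same if it kept its direction and its side of the threshold. A count of a list moved if it changed by over 1.5 times, and a median of a list if it shifted by the SD between samples or more. The replicate letters did not pair the samples (deviations of the same letter correlated at -0.062 to 0.296, and 2 PPARa-M arrays correlated best with their own letter); with the letter as a replicate block, 1240 probes were higher and 713 lower. The causes were not tested. Depth and signal are unknown, so small ratios of dim probes cannot be told from those of bright ones.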

Other observations

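Some lists showed few or no calls, where 4.38% of all genes were called higher and 3.5% lower. For oxidative phosphorylation, 0 of 34 genes passed, with differences from -0.30 to 0.32, and for the proteasome 1 of 31, Psmd7, was higher. Of 21 genes of bile acid synthesis and transport, 2 were lower with PPARa-M siRNA, Akr1d1, a steroid reductase, and Slc27a5 (median -0.19). Of 18 genes of glucose handling 4 were higher, among them Foxo1, a factor that insulin restrains, and Irs1, an adaptor of the insulin receptor, and 1 was lower, Pcx, the pyruvate carboxylase. Of 22 genes of the stress response of the endoplasmic reticulum, 1 was lower, Xbp1, its transcription factor. Of 15 erythroid genes 2 were lower, Ermap and Alas2, the first enzyme of haem synthesis in red cells, and of 11 retinoid genes 2 were lower, Aldh1a2 and Rdh16. Of 9 pericentral markers 1 was lower, Rhbg, an ammonium transporter.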
